A study of Mus musculus with 20 samples.

Results

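Transcript levels of 9 core genes of the circadian clock were examined in ovaries of the Dummerstorf high-fertility mouse line FL1 and of its unselected control line ctrl. The genes were *Per1*, *Per2*, *Per3*, *Cry1*, *Cry2*, *Arntl*, *Clock*, *Npas2* and *Rora*. They came from a list of clock genes by name and were matched by symbol to 1 Ensembl identifier each, so they are 9 of the 54838 genes counted in each library.

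Reads were counted per gene in 3′ mRNA-Seq libraries from whole ovaries of 20 female mice aged 77 days, with 1 library per animal. Each line was sampled in estrus and in diestrus, which gives 4 groups of 5 libraries. FL1 was bred for many generations for high female fertility and ctrl was kept without selection, both from the same outbred founders, so that animals of a group are not genetically identical and a difference between the lines is not the effect of a single allele. The ctrl animals carry the genotype label WT, and no treatment or transgene is given for any group. Stages were read from vaginal smears, and all animals were sampled at the same daytime, whose hour is not given in the sources used here. The levels below therefore describe 1 unspecified point of the day and not a rhythm.

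The circadian clock is a transcriptional feedback loop that runs in most cells. ARNTL (also called BMAL1) pairs with CLOCK or its relative NPAS2 and activates genes that carry an E-box, among them the *Per* and *Cry* genes, whose proteins return to the nucleus and repress their own activators. A further loop uses the nuclear receptors ROR and REV-ERB, which compete for the same element in *Arntl* and raise or lower its transcription, and PAR-bZIP factors such as DBP act through D-boxes. In the ovary, clock genes are known to be expressed in granulosa, theca and luteal cells, and *Per2* and other *Per* genes also respond quickly to hormones and to other acute stimuli.

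Elements of the loops described above were looked for in the RefSeq promoters of GRCm38.p6, which run from 250 bases before to 50 bases after a transcription start. The promoter table held 12 promoters of 8 of the 9 genes, all but *Per2*. The E-box CACGTG, which reads the same on either strand, was in 2 of the 12 promoters, 1 of *Per1* and 1 of *Cry1*, and in 7.15% of all 32851 promoters. The D-box letters TTATGTAA, searched on both strands, were in 1 promoter, of *Per3*, where they occurred 2 times, and in 0.938% of all promoters. The letters AGGTCA, the core of the element bound by ROR and REV-ERB, were in 3 promoters, of *Arntl*, *Clock* and *Per1*, and in 16.3% of all promoters, again on both strands. A match is a description of the sequence and not a bound site. DBP, which acts through the D-box, is not one of the 9 genes. The stretches around some of these letters are shown to give their place, and a link between the genes was not tested. They lie at chr11:69098729-69098848 (plus strand), chr10:85185055-85185174 (minus strand), chr4:151044786-151044905 (minus strand) and chr7:113207530-113207559 (plus strand), each is printed 5′ to 3′ on the strand of its gene, and capitals mark the E-box in *Per1* and *Cry1*, both D-boxes in *Per3* and the letters AGGTCA in *Arntl*.
Per1: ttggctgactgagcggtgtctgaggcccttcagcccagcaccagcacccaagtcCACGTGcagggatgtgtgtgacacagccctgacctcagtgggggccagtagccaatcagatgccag
Cry1: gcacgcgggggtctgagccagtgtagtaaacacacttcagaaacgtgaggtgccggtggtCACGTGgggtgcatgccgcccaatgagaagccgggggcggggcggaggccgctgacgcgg
Per3: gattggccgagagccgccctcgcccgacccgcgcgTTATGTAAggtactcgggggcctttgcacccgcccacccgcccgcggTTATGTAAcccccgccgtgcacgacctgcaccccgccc
Arntl: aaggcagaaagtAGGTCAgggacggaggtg

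Libraries held 5991223 to 10352718 counts, with a median of 6957533. Levels are given as CPM, in which TMM factors put the counts of all libraries on 1 scale, and since reads of this kit gather at the 3′ end, they are compared between groups for 1 gene and not between genes. Genes of oocytes, granulosa and luteal cells were expressed in every library, whereas the granulosa gene *Amh* had 0 to 6 counts and the theca gene *Insl3* 0 to 3 counts. The 3 oviduct markers summed to 0 to 4.66 CPM, and the 5 fat markers to 19.0 to 109 CPM. The sum of the 3 theca markers is mostly *Cyp11a1*. Its median was 8681 CPM over the 20 libraries, beside 89.9 CPM for *Cyp17a1* and 0 for *Insl3*. Ctrl estrus library 5 stood apart from its group. Its median correlation with the other ctrl estrus libraries was 0.923, against 0.950 to 0.976 for the other 19 libraries with their own groups, and it had the lowest summed granulosa markers of all, at 967 CPM. Its summed luteal and theca markers, 24731 and 11083 CPM, were the highest of its group. They lay within the ctrl diestrus ranges of 20062 to 34342 and 8610 to 11574 CPM. Without this library, 1 call among the 9 genes changed, that of *Per3* over both stages, and values without it are given where a result leans on ctrl estrus. In whole ovaries, fewer cells of a type and less RNA per cell cannot be told apart.

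Between the lines in estrus, 1 of the 9 genes differed, *Per2*, which was weaker expressed in FL1. Of all 13374 genes tested in that comparison, 2.33% passed the threshold, an edgeR p-value adjusted over all genes of at most 0.05. In diestrus 1 of 9 differed, *Rora*, which was stronger expressed in FL1, against 4.11% of 13259 genes. Between the stages, 3 of 9 differed in FL1, against 15.9% of 13350 genes: *Per2* rose from estrus to diestrus, and *Arntl* and *Npas2* fell. In ctrl, 0 of 9 differed between the stages by edgeR, DESeq2 or limma-voom, with 1 of 9 at an unadjusted p of at most 0.05 in edgeR and 2.85% of 13334 genes past the threshold. The line-by-stage interaction passed for 0 of 9 by the same tools, with 1 of 9 at an unadjusted p of at most 0.05 and 0.0565% of 14154 genes past the threshold. With line and stage in 1 fit of all 20 libraries, 1 of 9 differed between the lines, again *Rora*, against 6.74% of 14154 genes.

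**Figure D1:**
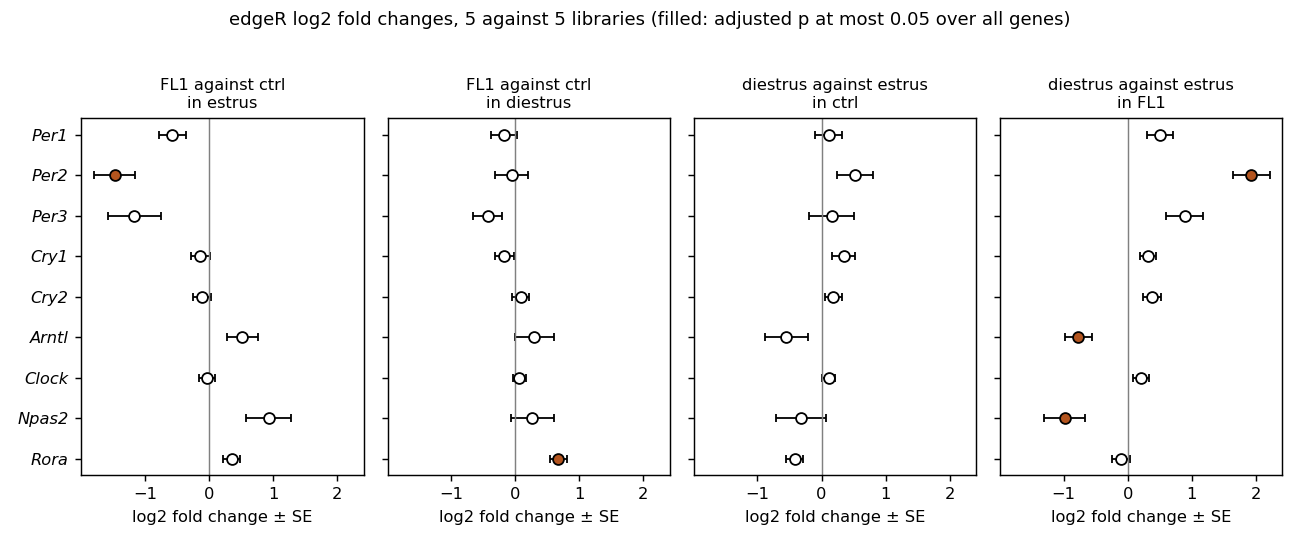
Log2 fold changes of the 9 clock genes with their SE (edgeR, 5 against 5 libraries) in 4 comparisons, with filled points where the p-value adjusted over all genes was at most 0.05. *Per2* stands at -1.48 between the lines in estrus and at 1.93 between the stages in FL1, and *Rora* at 0.67 between the lines in diestrus.

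These comparisons share libraries, since the 5 FL1 estrus libraries enter both the line comparison in estrus and the stage comparison in FL1. Their results are therefore not independent of each other. Over the 9 genes, the median log2 fold change of FL1 against ctrl was -0.11 in estrus and 0.064 in diestrus, beside -0.0052 and -0.0093 over all genes tested. For diestrus against estrus it was 0.11 in ctrl and 0.31 in FL1, beside 0.0058 and -0.0071 over all genes.

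**Figure D2:**
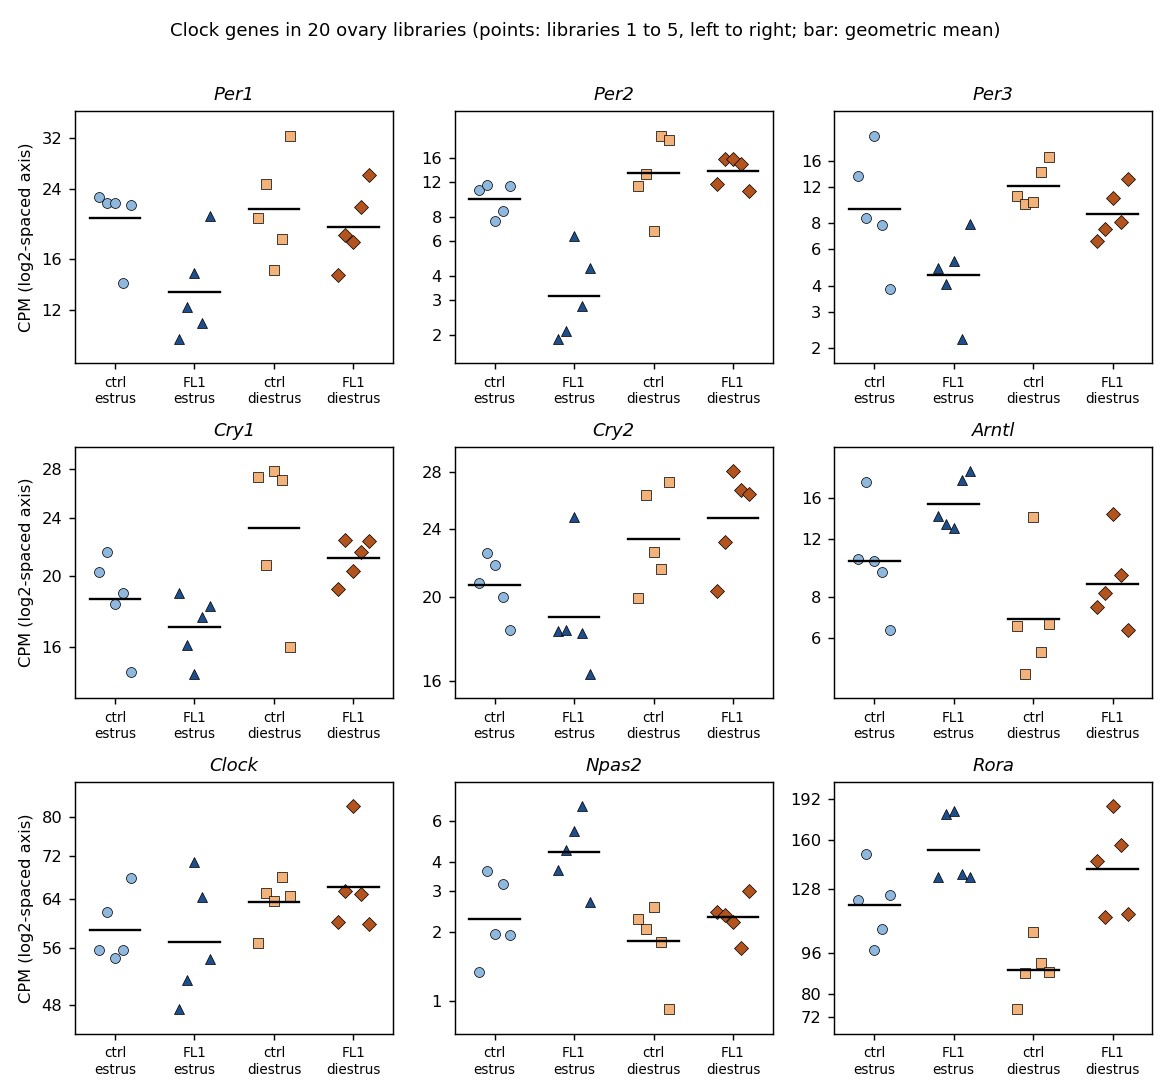
CPM of the 9 clock genes in the 20 libraries on log2-spaced axes, with 1 point per library (1 to 5 from left to right in each group) and a bar at the geometric mean of each group. FL1 in estrus lies lowest for *Per1*, *Per2* and *Per3* and highest for *Arntl*, *Npas2* and *Rora*, and only for *Per2* does it lie below every library of all other groups.

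The *Per* genes encode the PERIOD repressors of the loop. *Per2* (ENSMUSG00000055866) lies on the minus strand at chr1:91415982-91459324 of GRCm38, and no other annotated gene overlaps it. In estrus it had 11.01, 11.6, 7.58, 8.59 and 11.5 CPM in ctrl libraries 1 to 5 and 1.91, 2.10, 6.41, 2.81 and 4.39 CPM in FL1 libraries 1 to 5. The lines did not overlap, and the lowest FL1 libraries rested on 13 and 14 counts. Means were 10.05 ± 1.84 CPM in ctrl and 3.53 ± 1.88 CPM in FL1 (SD, n = 5 each), a log2FC of -1.48 with an SE of 0.32 (edgeR, adjusted p = 0.0263). Groups without overlap were found for 4.88% of all genes in this comparison, and *Per2* was the single clock gene among the 9 with this property. Without ctrl estrus library 5 the log2FC was -1.42 (edgeR, adjusted p = 0.0345). The call was close to the threshold: it was lost when ctrl library 1 or 2 or FL1 library 1, 2, 4 or 5 was left out, with a log2FC of -1.56 to -1.33 and adjusted p of 0.0504 to 0.0756, while it was kept without the other 4 libraries. *Per2* in estrus is among the genes the study itself singled out on these libraries, so its selection and this value are not independent. The study also measured it by qPCR in more animals, with a lower level in FL1. Whether those include the animals sequenced is not stated.

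In diestrus, *Per2* had 11.5, 13.3, 6.77, 20.8 and 19.7 CPM in ctrl and 11.8, 15.7, 15.8, 14.9 and 10.8 CPM in FL1. The FL1 values all lay within the range of ctrl, which was the wider group, with a low library 3 and high libraries 4 and 5. The difference between the lines was -0.056 on the log2 scale, with an SE of 0.26 (edgeR, adjusted p = 0.946). From estrus to diestrus, *Per2* rose in FL1 by a log2FC of 1.93 with an SE of 0.29 (edgeR, adjusted p = 0.000237) without overlap between the stages, which was found for 12.2% of all genes in that comparison, and the call held in each of the 10 fits that left out a library. In ctrl the same contrast had a log2FC of 0.52 with an SE of 0.28 (edgeR, adjusted p = 0.400) or 0.58 without ctrl estrus library 5. The difference between these stage contrasts, the interaction, was 1.41 with an SE of 0.42 and did not pass the threshold (edgeR, adjusted p = 0.180, unadjusted p = 0.00271).

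*Per1* (ENSMUSG00000020893, plus strand, chr11:69095217-69109960) and *Per3* (ENSMUSG00000028957, minus strand, chr4:151003652-151044665) were also lowest in FL1 in estrus, but neither passed the threshold. *Per1* had 22.8, 22.1, 22.1, 14.0 and 21.8 CPM in ctrl estrus and 10.2, 12.2, 14.8, 11.1 and 20.5 CPM in FL1 estrus. The lines overlapped through ctrl library 4 and FL1 libraries 3 and 5 (log2FC -0.57, SE 0.21, edgeR adjusted p = 0.197). *Per3* had 13.6, 8.46, 21.2, 7.83 and 3.88 CPM in ctrl estrus and 4.86, 4.06, 5.25, 2.22 and 7.93 CPM in FL1 estrus. Here ctrl library 5, the one that stood apart, was the lowest of its group, and the log2FC of -1.17 with an SE of 0.41 (edgeR, adjusted p = 0.172) became -1.37 without it (adjusted p = 0.0522). In diestrus *Per1* ranged from 15.05 to 32.5 CPM in ctrl, with a median of 20.3, and from 14.6 to 25.9 CPM in FL1, with a median of 18.3. *Per3* ranged from 9.87 to 16.6 CPM in ctrl diestrus, with a median of 10.9, and from 6.60 to 13.0 CPM in FL1 diestrus, with a median of 8.08. Neither differed between the lines in diestrus at the threshold, with edgeR adjusted p of 0.723 for *Per1* and 0.337 for *Per3*.

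From estrus to diestrus in FL1, *Per3* had a log2FC of 0.89 with an SE of 0.29 and narrowly missed the threshold (edgeR, adjusted p = 0.0508), which DESeq2 passed (adjusted p = 0.0268). *Per1* had a log2FC of 0.50 with an SE of 0.20 (edgeR, adjusted p = 0.101). Without FL1 estrus library 5, the FL1 estrus library highest in both genes, both passed (log2FC 0.69 and adjusted p = 0.0224 for *Per1*, 1.14 and 0.0182 for *Per3*), as did *Per3* without FL1 diestrus library 1 (adjusted p = 0.0453). Over both stages, *Per3* had a log2FC of -0.79 between the lines with an SE of 0.25 (edgeR, adjusted p = 0.0604). It passed without ctrl estrus library 5 (-0.87, adjusted p = 0.0243) and without FL1 diestrus library 5 (-0.89, adjusted p = 0.0399). *Per2* had -0.71 with an SE of 0.25 (adjusted p = 0.1003) and passed without ctrl diestrus library 3 (-0.84, adjusted p = 0.0308). Pooled over the groups, *Per3* varied most between animals, with a within-group SD of 0.60 on the log2 CPM scale, beside 0.50 for *Per2* and 0.36 for *Per1*. By group, the SD of *Per3* was 0.89 in ctrl estrus, which holds library 5, and 0.63 in FL1 estrus. It was 0.33 in ctrl diestrus, below *Per2* (0.64) and *Per1* (0.42) there, and 0.39 in FL1 diestrus.

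*Cry1* and *Cry2* encode the CRYPTOCHROME partners of the PER proteins. *Cry1* (ENSMUSG00000020038, minus strand, chr10:85131700-85185064) had 18.8 ± 2.55 CPM in ctrl estrus, 17.1 ± 1.72 in FL1 estrus, 23.8 ± 5.23 in ctrl diestrus and 21.2 ± 1.38 in FL1 diestrus (SD, n = 5). Within FL1 the stages did not overlap, with a highest estrus library of 19.0 CPM and a lowest diestrus library of 19.2 CPM, but the log2FC of 0.31 with an SE of 0.13 did not pass the threshold (edgeR, adjusted p = 0.106). In ctrl the log2FC was 0.34 with an SE of 0.17 (adjusted p = 0.378). *Cry2* (ENSMUSG00000068742, minus strand, chr2:92403646-92434043) had 20.7 ± 1.65 CPM in ctrl estrus, 19.2 ± 3.25 in FL1 estrus, 23.5 ± 3.13 in ctrl diestrus and 24.9 ± 3.11 in FL1 diestrus. Its stage contrast was 0.38 with an SE of 0.14 in FL1 (edgeR, adjusted p = 0.0801), which passed without FL1 estrus library 3 (0.49, adjusted p = 0.0225), and 0.19 with an SE of 0.13 in ctrl (adjusted p = 0.570). The log2FC between the lines was -0.14 in estrus and -0.17 in diestrus for *Cry1* and -0.11 and 0.082 for *Cry2*. The antisense gene *D930015M05Rik* shares exon bases with *Cry2* and had at most 1 count in any library.

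*Arntl*, *Clock* and *Npas2* encode the activators. *Arntl* (ENSMUSG00000055116) lies on the plus strand at chr7:113207465-113314126. It had 10.5, 17.9, 10.3, 9.53 and 6.34 CPM in ctrl estrus and 14.1, 13.4, 13.0, 18.2 and 19.4 CPM in FL1 estrus. All FL1 libraries but those above 17.9 CPM lay within the ctrl range, which a single high ctrl library widened (log2FC 0.52, SE 0.24, edgeR adjusted p = 0.309; 0.39 without ctrl estrus library 5). In diestrus it had 6.53, 4.66, 14.0, 5.44 and 6.62 CPM in ctrl and 7.46, 8.26, 14.4, 9.36 and 6.34 CPM in FL1. Each line had 1 library well above its other 4, library 3 in both, and ctrl diestrus library 3 was also the library with the lowest *Per2* of its group. From estrus to diestrus *Arntl* fell in FL1, with a log2FC of -0.77 and an SE of 0.21 (edgeR, adjusted p = 0.0217). The call was lost without FL1 estrus library 4 or 5 or FL1 diestrus library 1 or 5 (log2FC -0.72 to -0.67, adjusted p of 0.0509 to 0.0610). In ctrl the log2FC was -0.55 with an SE of 0.33 (adjusted p = 0.478), or -0.68 without ctrl estrus library 5, and the interaction was -0.22 with an SE of 0.41 (adjusted p = 0.876). The antisense gene *Gm45355* shares exon bases with *Arntl* and had at most 2 counts in any library.

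*Npas2* (ENSMUSG00000026077, plus strand, chr1:39193731-39363236), the stand-in for CLOCK in the heterodimer, was the least counted of the 9, with 6 to 52 counts per library. It had 1.34, 3.65, 1.96, 3.21 and 1.94 CPM in ctrl estrus and 3.68, 4.51, 5.46, 6.95 and 2.68 CPM in FL1 estrus. All but FL1 library 5 were above the highest ctrl library, with a log2FC of 0.93 and an SE of 0.35 that did not pass the threshold (edgeR, adjusted p = 0.208), or 0.87 without ctrl estrus library 5. In diestrus it had 2.27, 2.06, 2.56, 1.81 and 0.924 CPM in ctrl and 2.44, 2.36, 2.21, 1.70 and 3.00 CPM in FL1. In FL1 *Npas2* fell from estrus to diestrus with a log2FC of -0.98 and an SE of 0.32 (edgeR, adjusted p = 0.0479), the call nearest to the threshold. Only the fits without FL1 estrus library 1 or 5 or FL1 diestrus library 5 kept it, and without the other 7 libraries, FL1 estrus 2, 3 and 4 and FL1 diestrus 1, 2, 3 and 4, adjusted p was 0.0714 to 0.133 with a log2FC of -1.003 to -0.803. In ctrl the log2FC was -0.32 with an SE of 0.38 (adjusted p = 0.772).

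*Clock* (ENSMUSG00000029238, minus strand, chr5:76209868-76304792) varied least between animals of a group, with a pooled SD of 0.17 on the log2 CPM scale. It had 59.1 ± 5.65 CPM in ctrl estrus, 57.7 ± 9.65 in FL1 estrus, 63.6 ± 4.15 in ctrl diestrus and 66.6 ± 9.30 in FL1 diestrus. Its log2FC lay between -0.036 and 0.21 in the 4 comparisons of line or stage, and the nearest to the threshold was the stage contrast in FL1 (edgeR, adjusted p = 0.263).

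*Rora* encodes the receptor RORα, an activator of *Arntl*. The gene (ENSMUSG00000032238) lies on the plus strand at chr9:68653786-69388246. In diestrus it had 74.5, 87.6, 105.6, 92.0 and 88.3 CPM in ctrl and 145, 113, 186, 156 and 115 CPM in FL1. Every FL1 library exceeded every ctrl library, a property of 5.45% of all genes in this comparison. The log2FC was 0.67 with an SE of 0.14 (edgeR, adjusted p = 0.0119), and it was called in each of the 10 fits that left out a library. Like *Per2* in estrus, *Rora* in diestrus had been singled out by the study on the same libraries, and was also higher in FL1 by the study's qPCR. In estrus it had 122, 150.1, 97.5, 107 and 125 CPM in ctrl and 135, 179.8, 182, 137 and 135 CPM in FL1. Here only ctrl library 2 reached the range of FL1, and the log2FC was 0.36 with an SE of 0.13 (edgeR, adjusted p = 0.203), or 0.38 without ctrl estrus library 5.

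Over both stages, *Rora* was stronger expressed in FL1 by a log2FC of 0.52 with an SE of 0.10 (edgeR, adjusted p = 0.00263), in each of 20 fits that left out a library. Its sign was the same in both stages, and its interaction of 0.32 with an SE of 0.20 did not pass (adjusted p = 0.557). In ctrl its level was lower in diestrus than in estrus by a log2FC of -0.42 with an SE of 0.13, which had an unadjusted p of 0.00561 and an adjusted p of 0.106. In FL1 the same contrast was -0.10 with an SE of 0.14 (adjusted p = 0.652). The antisense gene *Gm15511* shares exon bases with *Rora* and had at most 6 counts in any library.

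The 4 groups were also ordered by mean level for each gene in 1 fit of all 20 libraries. FL1 estrus was the lowest group for *Per1*, *Per2*, *Per3*, *Cry1*, *Cry2* and *Clock* and the highest for *Arntl*, *Npas2* and *Rora*. Ctrl diestrus was at the opposite end for *Per1*, *Per2*, *Per3*, *Cry1*, *Arntl*, *Npas2* and *Rora*. Of the 27 steps between neighbouring groups in these orders, 1 passed the threshold, the step of *Per2* from FL1 estrus up to ctrl estrus (edgeR, adjusted p = 0.00732 in this fit, in which 3.75% of all genes differed between these groups). The log2FC between both ends, from FL1 estrus to ctrl diestrus, is a description, since the order itself picked these groups. It was 1.99 for *Per2*, 1.32 for *Per3*, 0.68 for *Per1* and 0.48 for *Cry1*, and -1.07 for *Arntl*, -1.25 for *Npas2* and -0.78 for *Rora*. Line and stage cannot be told apart in this contrast.

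In the whole ovary, markers of other cells moved between the stages too. From estrus to diestrus in FL1, 5 of 6 luteal genes, both tested theca genes, 3 of 6 tested granulosa genes and 4 of 4 blood genes rose at the threshold. Of all genes tested there, 8.49% rose. Of 7 oocyte genes, 0 rose and 1 fell, with a median log2FC of -0.35. None of 4 macrophage and 4 tested fat genes passed, with medians of -0.030 and -0.998. Of 13334 genes tested between the stages in ctrl, 142 rose. There 1 of 6 luteal, 1 of 2 theca, 1 of 6 granulosa and 0 of 4 blood genes rose at the threshold. The median log2FC of these lists was nonetheless 0.80, 2.80, 0.59 and 0.96 in ctrl, beside 1.02, 2.31, 0.56 and 0.99 in FL1. Summed levels in FL1 went from 13278 to 24935 CPM in estrus to 20160.3 to 28667 CPM in diestrus for the luteal list. For the theca list, mostly *Cyp11a1*, they went from 4706 to 8871 CPM to 11068 to 13845 CPM. For the granulosa list they were 1935 to 2967 CPM and 2103 to 3405 CPM, and for the blood list 871 to 1670.3 CPM and 1209.9 to 3283 CPM. The defining markers *Amh* and *Insl3* stayed at or near 0 as given above. Of 7 tested immediate early genes, which respond to acute stimuli, 4 rose in FL1, as did 3 of 5 glucocorticoid-induced genes. In ctrl, 0 of 8 tested immediate early genes rose at the threshold, and of 5 glucocorticoid-induced genes 1 rose and 1 fell. The median log2FC of these 2 lists was 0.43 and 0.21 in ctrl, beside 0.71 and 0.63 in FL1. Summed levels of the immediate early list in FL1 were 389 to 766 CPM in estrus and 580.1 to 1067 CPM in diestrus. Those of the glucocorticoid-induced list in FL1 were 875 to 1299.6 CPM and 1359.8 to 1629.8 CPM. The part of these lists in the stage contrasts of *Per2*, *Arntl* and *Npas2* was not tested. Between the lines in estrus, where *Per2* differed, 1 of 5 glucocorticoid-induced genes was lower in FL1 and 0 of the 36 tested genes of the immediate early, granulosa, luteal, theca, oocyte, blood and macrophage lists passed by edgeR, 5 of them with an unadjusted p of at most 0.05. Of these 5, 3 were macrophage genes of 4 tested, *Adgre1*, *Csf1r* and *C1qa*, with log2FC of -0.42, -0.61 and -0.51, while the remaining one, *Cd68*, had 0.40. Summed macrophage levels were 82.1 to 162 CPM in ctrl estrus, with a median of 135, and 86.0 to 118 CPM in FL1 estrus, with a median of 93.7. The part of these genes in the *Per2* difference was not tested. Summed immediate early levels were 413 to 649 CPM in ctrl and 389 to 766 CPM in FL1, and summed luteal levels 9742 to 24731 CPM in ctrl and 13278 to 24935 CPM in FL1. In diestrus, where *Rora* differed, 1 of 6 luteal, 1 of 6 tested granulosa, 1 of 4 macrophage and 1 of 5 glucocorticoid-induced genes was higher in FL1. Of all genes tested there, 4.11% passed in either direction. The log2FC was positive for 3 of 6, 4 of 6, 1 of 4 and 4 of 5 genes of these lists. Its median was -0.045, 0.23, -0.19 and 0.14. Summed luteal levels there were 20061.7 to 34342 CPM in ctrl and 20160.3 to 28667 CPM in FL1, summed granulosa levels 2158 to 3407 CPM and 2103 to 3405 CPM, summed macrophage levels 64.1 to 112 CPM and 79.998 to 94.3 CPM, and summed glucocorticoid-induced levels 923 to 1516 CPM and 1359.8 to 1629.8 CPM. Over the immediate early, granulosa, luteal, theca, oocyte, blood and macrophage lists, 3 of 37 tested genes passed in diestrus by edgeR. An unadjusted p of at most 0.05 was found for 10 of the 37. These held 2 of 2 tested theca genes, of which 1 had a positive log2FC, and 3 of 8 immediate early genes. The part of any of these lists in the *Rora* difference was not tested.

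A wider list of 20 clock genes held the outputs and modifiers of the loop, and 18 of them had enough counts for a test. Between the stages in FL1, 9 rose and 1 fell at the threshold, 10 of 18. Of all genes tested there, 8.49% rose and 7.42% fell. Their median log2FC was 0.38. The REV-ERB receptors *Nr1d1* and *Nr1d2*, repressors of *Arntl*, rose by log2FC of 0.64 and 0.50 (SE 0.18 and 0.13). The PAR-bZIP factors, which act through D-boxes, rose together: *Dbp* by 1.26 with an SE of 0.24, *Tef* by 0.87 with an SE of 0.11 and *Hlf* by 0.79 with an SE of 0.23. *Nfil3*, which encodes the repressor that competes with them for the same element, fell by 1.01 on the log2 scale, with an SE of 0.20. The E-box repressors *Bhlhe40* and *Bhlhe41* rose by 0.80 and 1.49 (SE 0.18 and 0.22), and the kinase genes *Csnk1e* and *Gsk3b* by 0.37 and 0.39 (SE 0.090 and 0.098). *Ciart*, a further repressor of the loop, had a log2FC of 0.80 with an SE of 0.41 and did not pass (edgeR, adjusted p = 0.197).

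In ctrl, 0 of the 18 passed between the stages by edgeR, against 2.85% of all genes tested. Of the 18, 1 had an unadjusted p of at most 0.05, and the median log2FC was 0.086. There *Bhlhe40* had a log2FC of 0.78, close to that of FL1, but with an SE of 0.28 (adjusted p = 0.166), while *Dbp* had 0.17, *Hlf* -0.067 and *Nr1d1* -0.19. The interaction passed for 0 of the 18 by edgeR, although 7 had an unadjusted p of at most 0.05, so no gene of the list was shown to change differently with stage in the lines. Between the lines in estrus, 1 of 18 passed, against 2.33% of all genes tested. *Tef* had 73.5 to 121 CPM in ctrl and 49.9 to 68.2 CPM in FL1 without overlap, a log2FC of -0.72 with an SE of 0.14 (edgeR, adjusted p = 0.0146). Without ctrl estrus library 5, 3 of 18 passed, *Tef* (-0.76, adjusted p = 0.00795), *Hlf* (-1.23, adjusted p = 0.0280) and *Nfil3* (0.77, adjusted p = 0.0384). Calls over all genes rose as well, to 418 of 13642 without this library from 311 of 13374 with it. In diestrus, 0 of 18 passed between the lines by edgeR, with an unadjusted p of at most 0.05 for 2, while 4.11% of all genes passed. Over both stages 2 of 18 were lower in FL1, *Hlf* (log2FC -0.67, SE 0.20, adjusted p = 0.0424) and *Tef* (-0.40, SE 0.12, adjusted p = 0.0380). There 6.74% of all genes passed in either direction.

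**Figure D3:**
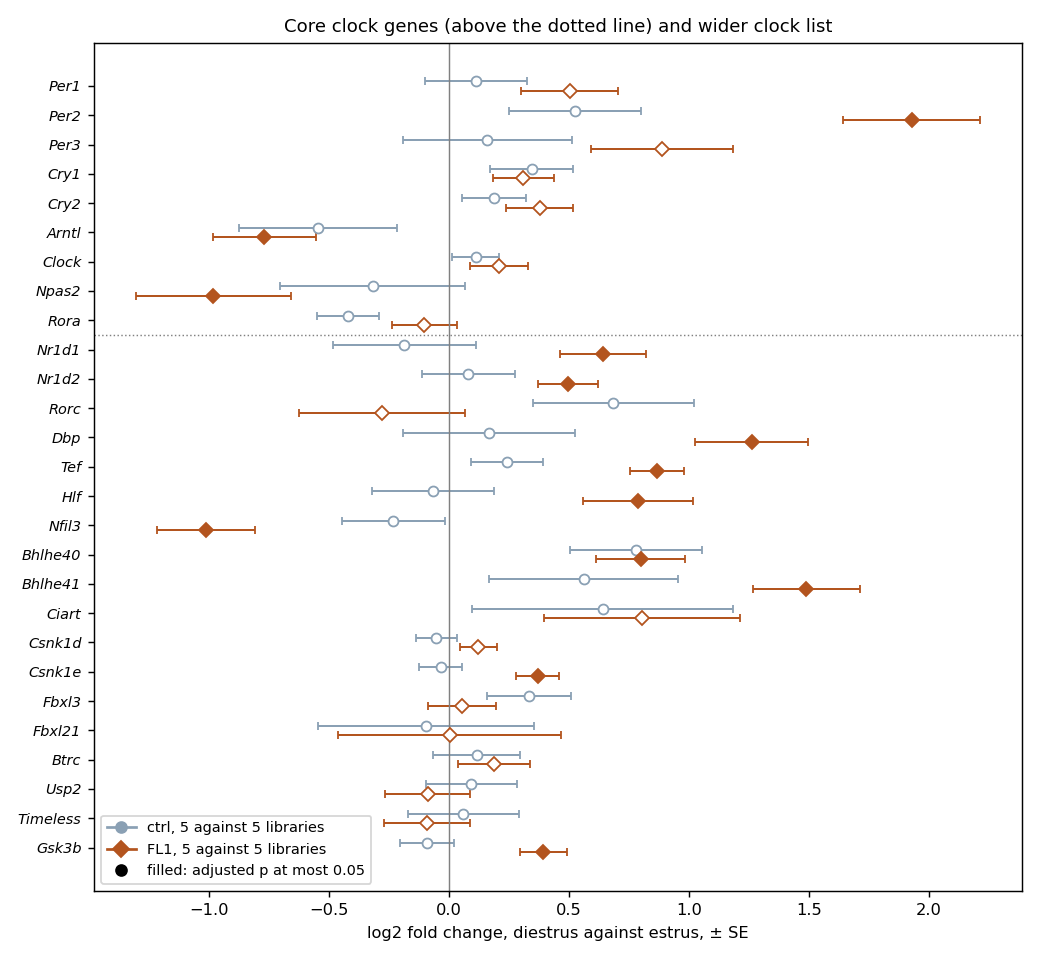
Log2 fold changes of diestrus against estrus with their SE (edgeR) for the 9 core clock genes and the 18 tested genes of the wider list, in ctrl and in FL1, with filled points at an adjusted p of at most 0.05. In FL1, 3 core genes and 10 listed genes are filled, and in ctrl none by edgeR, although *Bhlhe40* stands at 0.78 in ctrl and 0.80 in FL1.

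Whether animals with low *Per* had high *Arntl*, as opposite arms of the loop would at 1 time of day, was examined across single libraries. A phase itself cannot be read from 1 time point. With the mean of each group subtracted, Pearson's r over the 20 libraries was -0.19 for *Per2* and *Arntl* (permutation p = 0.470, adjusted over the 36 pairs of the 9 genes 0.680), with a Spearman's rho of -0.0075 (permutation p = 0.9785, adjusted 0.998). For *Per1* and *Arntl*, r was -0.17 (permutation p = 0.516, adjusted 0.680) and rho -0.039 (p = 0.880, adjusted 0.960). For *Per3* and *Arntl*, r was 0.13 (permutation p = 0.6295, adjusted 0.731) and rho 0.19 (p = 0.4525, adjusted 0.659). Without ctrl diestrus library 3 and ctrl estrus library 2, the libraries farthest from the median of *Arntl*, r was 0.13 for *Per2*, 0.023 for *Per1* and 0.36 for *Per3*. Without ctrl diestrus library 3 alone, r was 0.19 for *Per2* and 0.079 for *Per1*, and without ctrl estrus library 2 alone it was -0.28 and -0.24, so the negative sign was lost with the first of these libraries and not with the second. For *Per3* the sign turned without ctrl estrus library 5 (r = -0.13). By stage, r of *Per2* and *Arntl* was 0.074 in the 10 estrus libraries and -0.41 in the 10 diestrus libraries, and by line it was -0.50 in ctrl and 0.27 in FL1. None of these values passed the threshold after adjustment (permutation test).

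Of all 36 pairs, 0 passed after adjustment with group means subtracted, by Pearson's r or Spearman's rho, and 4 had an unadjusted permutation p of at most 0.05 for r. The largest of these values was that of *Per2* and *Clock* (r = 0.60, permutation p = 0.0103, adjusted 0.370). With group means left in, 13 of 36 passed, 8 with a positive and 5 with a negative r, and 11 by rho. Without the 2 libraries farthest from the median on that scale, a choice made after seeing the data, 6 passed by r and 0 by rho. For pairs with *Arntl* the libraries left out were ctrl diestrus library 2 and FL1 estrus library 5. For other pairs they were chosen by a gene of the pair, so these counts do not refer to a fixed set of libraries. Over all 20 libraries with group means left in, the *Per* genes went together (r = 0.72 for *Per1* and *Per2*, 0.69 for *Per1* and *Per3*, 0.62 for *Per2* and *Per3*). On the same scale *Per2* went against *Arntl* (r = -0.64, permutation p = 0.00239, adjusted 0.0123, rho = -0.57, p = 0.0109, adjusted 0.0388) and *Npas2* (r = -0.72). These values hold the differences between groups. Over the 15 libraries other than FL1 in estrus, a choice made after seeing the data, 0 of 36 pairs passed (3 had an unadjusted permutation p of at most 0.05), and r of *Per2* and *Arntl* was -0.39 (adjusted permutation p = 0.477).

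**Figure D4:**
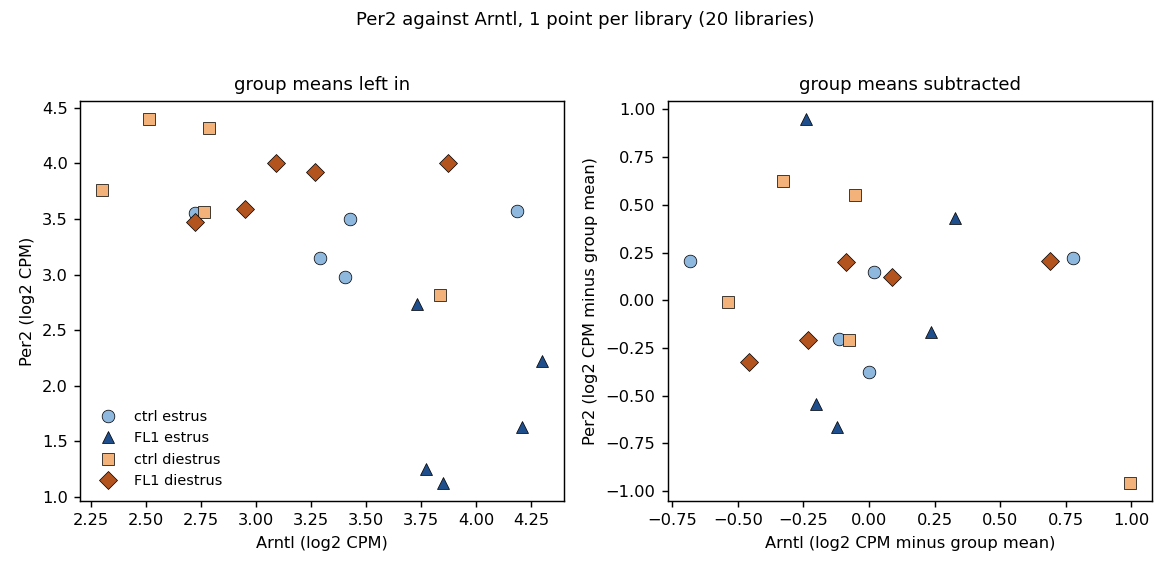
*Per2* against *Arntl* in log2 CPM, 1 point per library, with group means left in (left) and subtracted (right). On the left r is -0.64 and the 5 FL1 estrus libraries lie at low *Per2*. On the right r is -0.19, and the subtraction itself removes any separation of the group means.

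**Figure D5:**
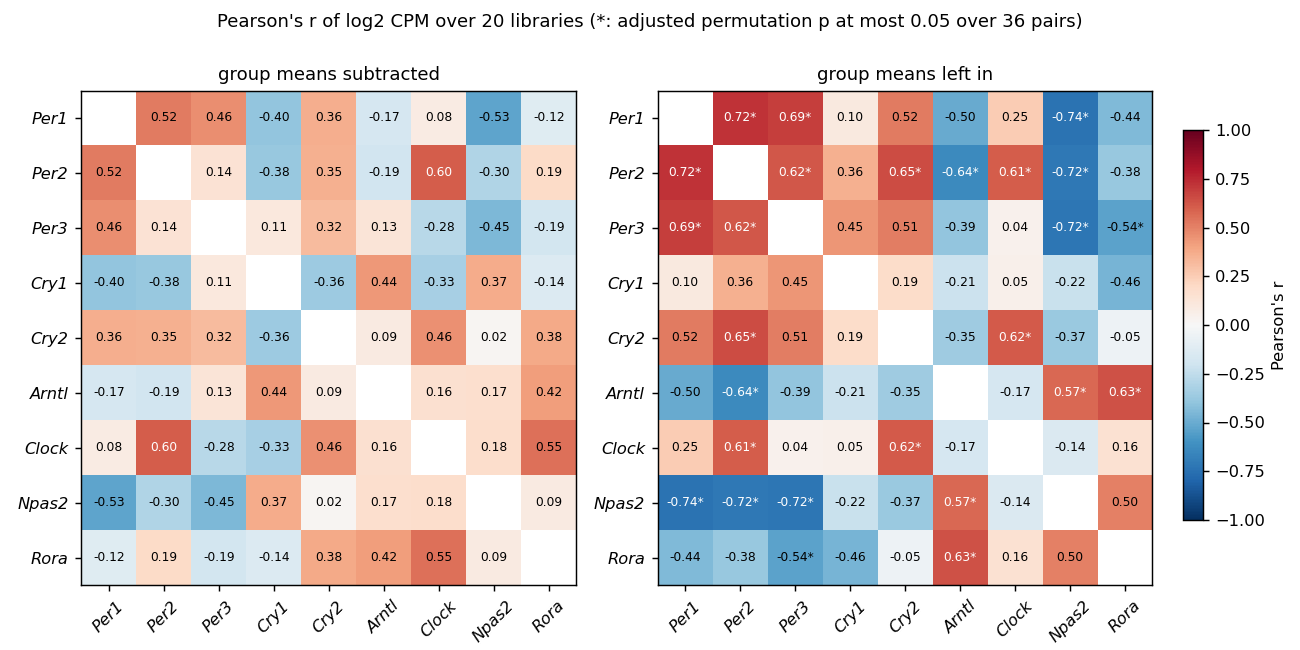
Pearson's r of log2 CPM for the 36 pairs of clock genes over 20 libraries, with group means subtracted (left) and left in (right), and a star where the permutation p adjusted over the pairs was at most 0.05. There are 0 stars on the left and 13 on the right, each drawn 2 times because the maps are symmetric.

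The genes whose group-centred log2 CPM followed a member most closely were sought among 9570 genes with a mean of at least 10 CPM, as a description over 20 libraries that share their groups. *Per2* was followed most closely by *Bhlhe40* (r = 0.85), *Mef2d* (0.85) and *Zrsr1* (0.79). *Bhlhe40* was the 1 clock gene among the 10 genes most like *Per2*, and the 10 most like each of the other 8 members held none from either clock list. Among the genes most like *Arntl* were *Det1* (r = 0.81) and *Actr6* (0.77), and *Rora* was followed by *Lcor* (0.86), *Arnt2* (0.84) and *Rhou* (0.81).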

How the data were processed

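RNA from both ovaries of 20 mice was sequenced as QuantSeq 3′ mRNA-Seq libraries. The authors aligned trimmed reads with STAR to GRCm38 (Ensembl annotation) and deposited raw counts of uniquely assigned reads, 1 table per library and unnormalized. STAR and Cuffdiff are the tools in the submitters' processing notes. The counting tool and its strand setting are not given in the sources used here, and no molecular identifiers are named. A near-identical copy of a gene, or an overlapping gene, could therefore take or add reads. Line, stage and replicate number were taken from the titles. The source name, which reads FL1 for all libraries, was not used.

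Everything else was computed from these counts. Symbols and positions came from GENCODE M21, which held 54809 of the 54838 identifiers. The main test was the quasi-likelihood test of edgeR 4.0.16 (R 4.3.3) with TMM, filterByExpr at a minimum count of 10 and Benjamini-Hochberg adjustment over all genes tested, with a threshold of 0.05. Lines were compared in the 10 libraries of a stage, stages in the 10 libraries of a line, and the interaction, the line difference over both stages and the order of the groups in all 20. The SE of a log2FC was obtained from its size and the F statistic. CPM used TMM factors over all 20 libraries. Correlations used log2 CPM with a prior count of 2 and 100000 permutations, within groups where group means were subtracted. The smallest p they can give is 1e-05. These steps ran in Python 3.11.15 (scipy 1.17.1, numpy 2.4.6), and figures were drawn with matplotlib 3.10.9. The test was tried on simulated counts before use.

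Alternatives were RLE scaling, DESeq2 1.42.0, limma-voom (limma 3.58.1), no filter beyond 1 count in total, 1 fit of 20 libraries, the replicate number as a block, each library left out in turn, and, for correlations, a prior count of 0.5, group means left in, and single stages or lines. All 9 genes are named, as are *Nr1d1*, *Nr1d2*, *Dbp*, *Ciart* and any gene of the wider list past the threshold in 1 of the 6 comparisons, and the 3 genes most like *Per2*, *Arntl* and *Rora*, of which 1 is not reported here. The 9 genes and all lists were chosen with earlier results of these data known. Labels do not say whether same-group animals were kept or processed together, so p-values measure the spread between these animals. Total counts per library were 5991223 to 10352718. Of replicates, 40 within-group pairs differed by a chi-square of 6.03 to 42.4 per gene, so each was counted as its own sample.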

Additional observations from a re-analysis of the deposited data

Results flagged for a closer look

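Within the 36 groups of 5 libraries formed by the 9 genes, 4 held a library far from the other 4 of its group by Dixon's criterion, which chance meets in about 1 of 20 groups. *Per1* in ctrl estrus was 13.96 CPM in library 4, and the next lowest library had 21.8 CPM. *Cry2* in FL1 estrus was 24.8 CPM in library 3, and the next highest had 18.3 CPM. *Arntl* in ctrl diestrus was 13.996 CPM in library 3, and the next highest had 6.62 CPM. *Clock* in FL1 diestrus was 82.5 CPM in library 3, and the next highest had 65.5 CPM.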

How the results depend on the processing

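The *Rora* calls in diestrus and over both stages and the *Per2* call between the stages in FL1 held under every alternative run. DESeq2 called 653 genes between the lines in estrus (edgeR 311), 896 in diestrus (545), 765 between the stages in ctrl (380) and 152 in the interaction (8), without filter 477 and 846 were called between the lines in estrus and diestrus and 17 in the interaction, 1 fit of 20 libraries called 531 between the lines in estrus and 909 between the stages in ctrl, and limma-voom 3 in the interaction. Of the 9 genes, 1 fit of 20 libraries called 1 between the stages in FL1, *Per2* (*Arntl* adjusted p = 0.0862, *Npas2* 0.0613), limma-voom and the unfiltered fit lost *Npas2* there (0.0843 and 0.0874), the unfiltered fit added *Per3* (0.0197), and over both stages DESeq2 called 3 and the unfiltered fit 2, adding *Per3* (0.0279 and 0.0394) and, in DESeq2, *Per2* (0.0445). The line difference of *Per2* in diestrus turned to 0.067 with limma-voom. The causes were not tested.

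The correlation of deviations of same-numbered libraries was -0.12 to 0.16 between the lines in estrus and -0.12 to 0.25 over all pairs of groups. At most 3 samples of a group correlated best with their own number, those of FL1 estrus with ctrl diestrus. There the mean correlation was 0.098 for the same number and -0.025 for other numbers. Labels do not say whether same-numbered libraries were processed together, and these values cannot exclude it. With the replicate number as a block, 0 of the 9 genes passed between the lines in estrus (*Per2* log2FC -1.58, adjusted p = 0.0599), with 230 genes called. *Per2* in diestrus was 0.0068, and 4 of 9 passed between the stages in FL1 (*Per1*, *Per2*, *Per3* and *Arntl*).

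With 1 library left out, genes called ranged from 175 to 418 between the lines in estrus, from 349 to 594 in diestrus, from 176 to 516 between the stages in ctrl and from 0 to 15 in the interaction, and clock genes called from 0 to 1 in estrus, from 1 to 4 between the stages in FL1 and from 1 to 2 over both stages. Signs turned for small values: between the lines in diestrus *Per1* went from -0.29 to 0.0010, *Per2* from -0.23 to 0.11 and *Clock* from -0.023 to 0.10, in estrus *Clock* from -0.12 to 0.024, over both stages *Clock* from -0.027 to 0.049 and *Cry2* from -0.057 to 0.020, between the stages in ctrl *Per1* from -0.063 to 0.22 and *Per3* from -0.047 to 0.54, and in the interaction *Arntl* from -0.46 to 0.13 and *Cry1* from -0.15 to 0.038.

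Pearson's r with *Arntl* went with 1 library left out from -0.31 to 0.079 for *Per1*, from -0.28 to 0.19 for *Per2* and from -0.13 to 0.25 for *Per3*. With group means subtracted it was 0.23, 0.074 and 0.30 in estrus, -0.47, -0.41 and -0.11 in diestrus and 0.0083, 0.27 and 0.018 in FL1, for *Per1*, *Per2* and *Per3*. Without the 2 farthest libraries it was 0.023, 0.13 and 0.36. With group means left in it was -0.50, -0.64 and -0.39, and -0.62 for *Per2* and -0.42 for *Per3* without the 2 farthest libraries (chosen after seeing the data). For *Per3* with group means left in it was -0.17 in estrus, -0.28 in diestrus and -0.54 in FL1.

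Depth limits *Npas2* most, at 6 to 52 counts, and *Per2* and *Per3* in FL1 estrus, at 13 to 61 and 15 to 74 counts. *Arntl2*, with 0 to 7 counts, could not be tested.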
